A study of Mus musculus with 4 samples.

Results

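The readers of N6-methyladenosine (m6A) were examined in mouse embryonic stem cells (ESCs) depleted of CNOT1: the genes Ythdf1, Ythdf2, Ythdf3, Ythdc1 and Ythdc2, which encode proteins with a YTH domain, and Igf2bp1, Igf2bp2 and Igf2bp3, which encode RNA-binding proteins with KH domains. These 8 genes were chosen by name, out of 50559 genes listed in the count table, and all 8 had enough counts to be tested. ESCs of the line E14 were transfected with siRNA against Cnot1 (siCnot1) or with a non-targeting siRNA (siNT), each at 150 nM, and collected after 48 h, which gave 4 libraries from 2 biological replicates of each group. Both groups grew on gelatin in medium with serum replacement and leukemia inhibitory factor. The study's methods describe the ESCs as carrying a tdTomato transgene under the MERVL promoter, so both groups would carry it, and the methods list 2 siRNAs against Cnot1 without naming which was used for these libraries. An effect of the particular siRNA therefore cannot be told apart from the loss of Cnot1. Poly(A)+ RNA was sequenced, and the number of reads on each gene was deposited. RNA only was measured in these libraries, not protein and not m6A.

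m6A, a methyl mark on adenosines inside mRNAs, is placed by a methyltransferase complex built around METTL3 and METTL14, and proteins that bind it, the readers, set what happens to the methylated transcript. YTHDF1, YTHDF2 and YTHDF3 are closely related cytoplasmic proteins, and YTHDF2 is known for bringing the CCR4-NOT deadenylase to its targets by binding CNOT1, the scaffold of that complex. YTHDC1 acts in the nucleus, in splicing, export and the silencing of retrotransposons, and YTHDC2 is an RNA helicase needed for meiosis. IGF2BP1, IGF2BP2 and IGF2BP3 are oncofetal proteins, high in early development, that are known for protecting bound mRNAs from decay. The comparison asked how the transcripts of these readers stand when the deadenylase scaffold bound by YTHDF2 is depleted.

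The IGF2BP genes are known targets of let-7, a microRNA family that is low in ESCs, and the 3′ UTRs of the 8 genes were searched for its seed match. The mature let-7a-5p (RefSeq, GRCm38.p6, chr13:48538239-48538260, minus strand) is shown 5′ to 3′ with its seed, bases 2 to 8, in capitals.
let-7a-5p: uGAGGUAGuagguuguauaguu
The letters searched were CTACCTC, on the transcript strand only, in the longest annotated 3′ UTR of each gene (GENCODE M21, GRCm38). The match occurred 4 times in Igf2bp1, once in Igf2bp2 and once in Igf2bp3, and in none of the 5 YTH genes. Among 13963 tested genes with an annotated 3′ UTR, 10.5% held at least 1 match. In the same 3′ UTRs the seed match of miR-294-3p, AGCACTT, occurred 1 time each in Ythdf3, Ythdc2 and Igf2bp1 and in 17% of the tested genes, without following the families, and GGAC, a core of the m6A motif, occurred in each reader but Ythdc2 and in 85% of the tested genes. The let-7 sites are shown because they occurred in each IGF2BP gene and in no YTH gene, which was seen after the search, 5′ to 3′ on the minus strand, with the seed match in capitals.
Igf2bp1 site 1 (GRCm38 chr11:95961773-95961800): gctgtgcgaagtaaaCTACCTCaaggtg
Igf2bp1 site 2 (GRCm38 chr11:95959352-95959379): cagcagtgctattaaCTACCTCagcccc
Igf2bp1 site 3 (GRCm38 chr11:95958758-95958785): gtataaatggatgaaCTACCTCagtcct
Igf2bp1 site 4 (GRCm38 chr11:95958135-95958162): acttttggttttaatCTACCTCttagca
Igf2bp2 site (GRCm38 chr16:22059468-22059495): acacacaaataaaagCTACCTCaggtgt
Igf2bp3 site (GRCm38 chr6:49086782-49086809): tgcatttttactcaaCTACCTCaggtat
An A directly followed the match in 5 of the 6 sites, the exception being site 4 of Igf2bp1. The 3′ UTR of Igf2bp1 was also the longest of the 8, with 6337 bases, longer than in 98.1% of the tested genes, against 1784 bases in Igf2bp2 and 2119 in Igf2bp3. A match describes letters and is not a site shown to be bound, and let-7 itself was not measured in these libraries.

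Counts on genes totalled between 32135824 and 32557440 per library. Cnot1, the targeted gene, had 913 and 986 CPM (counts relative to library size, after edgeR's TMM scaling, which assumes that most genes are unchanged) in the siNT libraries and 185 and 192 in the siCnot1 libraries, so that 19.8% of the control level was left. Of 18144 genes tested, 29.7% passed an adjusted p of 0.05 by the quasi-likelihood test of edgeR, 15% higher and 14.7% lower in siCnot1, and the levels of the groups did not overlap for 63.9%. With library totals in place of TMM, 3999 genes were higher and 1563 lower, in place of 2719 and 2668. ESC markers were present in every library, with 7600 to 7880 CPM summed over 10 genes in siNT and 6410 to 6710 in siCnot1, and 7 of the 10 fell while Fgf4 rose. Markers of 2-cell-like cells (2CLCs), a rare state within ESC cultures, summed to 75.2 and 75.4 CPM in siNT and to 195 and 201 in siCnot1, and 7 of 8 tested rose. Among markers of other cell types, 8 extraembryonic genes summed to 8.97 and 11.5 CPM in siNT and to 15.2 and 15.5 in siCnot1. Of the 7 tested, Pdgfra and Krt7 rose, Krt7 from only 2 and 4 counts in siNT to 16 and 22 in siCnot1. The 6 fibroblast genes summed to 8.74 to 12.1 CPM in siNT and 12.8 to 13.3 in siCnot1, where Col1a1 rose among 3 tested and Dcn and Col3a1 were at 0 counts. The 8 genes of primed and early lineage cells summed to 131 to 139 CPM in siNT and 109 to 111 in siCnot1, where Otx2, Dnmt3b and Pax6 fell among 6 tested. The mitochondrial chromosome took 1.17% and 1.4% of the counts in siNT and 2.11% and 1.76% in siCnot1, and genes with at least 1 count numbered 24639 and 24607 in siNT and 25831 and 25659 in siCnot1. The part of these shifts in the changes of the readers was not tested. In bulk RNA, fewer cells of a type and less RNA per cell cannot be told apart.

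Of the 8 m6A readers, 2 rose (Ythdf1 and Ythdf3), 2 fell (Igf2bp2 and Igf2bp3) and 4 did not pass an adjusted p under 0.05. Their share called, 50%, stands beside 29.7% of all genes tested. After TMM scaling the groups did not overlap for 6 of them, 75% beside 63.9%, and overlap with other scalings was not counted. The mean CPM of the readers lay above that of 61.1% (Ythdf2) to 99.1% (Igf2bp1) of the genes tested. Small changes are called more readily at high counts, and no comparison with genes of like level was made. At the threshold of the study's methods, an unadjusted p of at most 0.05 and at least a 2-fold change, 7.98% of all genes were called, and the number of readers was 0 with edgeR, DESeq2 and limma-voom. At an unadjusted p under 0.05 alone edgeR counted 5 readers. The share of all genes at that threshold was not counted, so nothing is read from this number. The median log2 fold change was -0.11 over the readers and 0.01 over all genes tested. Apart from Igf2bp2, at -36.0%, the changes of the means lay between -17.4% and 14.8%.

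**Figure D1:**
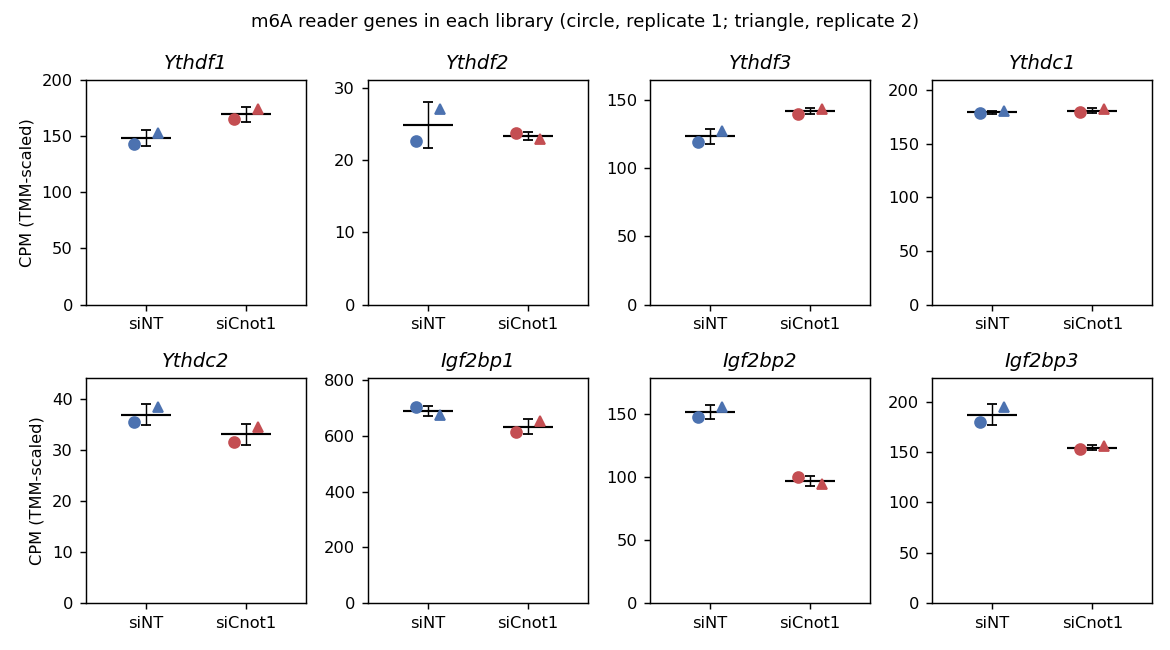
Level of each reader gene in CPM after TMM scaling (vertical axis from 0, a scale of its own in each panel) in siNT and siCnot1 ESCs. Points are single libraries, horizontal lines the mean and error bars the SD of 2 libraries; Igf2bp2 lies at 148 and 155 CPM in siNT and at 99.7 and 94.1 in siCnot1, while the groups overlap for Ythdf2 and Ythdc1.

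Among the YTHDF genes, Ythdf2 was the least abundant and did not pass the test. It encodes a reader that binds CNOT1. It had 22.7 and 27.1 CPM in the siNT libraries (705 and 849 counts) and 23.7 and 23.0 CPM in the siCnot1 libraries (795 and 769 counts). The siNT libraries lay on either side of both siCnot1 libraries, so the groups overlapped. The mean was 24.9 ± 3.13 CPM in siNT against 23.4 ± 0.532 in siCnot1 (SD, n = 2 per group), with a log2 fold change of -0.09 (SE 0.108, adjusted p = 0.58). The 95% interval ran from -0.32 to 0.13, and changes within it could not be resolved in either direction. With library totals in place of TMM the value was 0.02. Of the 31-base stretches in its longest coding transcript, 14.3% occurred also in transcripts of other genes, 11 in number, of which Gm6823 alone held 12.9% and was listed at 0 counts in all 4 libraries. How reads that fit several places were counted is not given in the sources used here, so the level of Ythdf2 is uncertain.

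Ythdf1 and Ythdf3, the paralogs of Ythdf2, both rose by a small amount. Ythdf1 encodes a reader known for promoting translation. It was at 143 and 153 CPM in siNT and at 165 and 174 in siCnot1, both of the latter above both controls. Its mean rose by 14.4%, from 148 ± 7.14 to 169 ± 6.56 CPM (SD, n = 2 per group), with a log2 fold change of 0.19 (SE 0.0611, adjusted p = 0.0182). Ythdf3 encodes the reader known for working with both of its paralogs. It was at 120 and 127 CPM in siNT and at 140 and 143 in siCnot1, again without overlap. The mean rose by 14.8%, from 123 ± 5.41 to 142 ± 2.38 CPM (SD, n = 2 per group), with a log2 fold change of 0.20 (SE 0.0615, adjusted p = 0.0161). No 31-base stretch of the longest coding transcript of either gene occurred in another gene.

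The calls of Ythdf1 and Ythdf3 needed all 4 libraries. Leaving out siNT replicate 1, siNT replicate 2, siCnot1 replicate 1 or siCnot1 replicate 2 gave log2 fold changes of 0.14, 0.24, 0.23 and 0.15 for Ythdf1, with adjusted p of 0.232, 0.0739, 0.0813 and 0.245. For Ythdf3 the values were 0.15, 0.24, 0.21 and 0.18, with adjusted p of 0.186, 0.0646, 0.109 and 0.173. The direction held in each of these fits and the call did not. It was lost also without a filter on low counts, where the adjusted p was 0.115 for Ythdf1 and 0.0897 for Ythdf3.

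**Figure D2:**
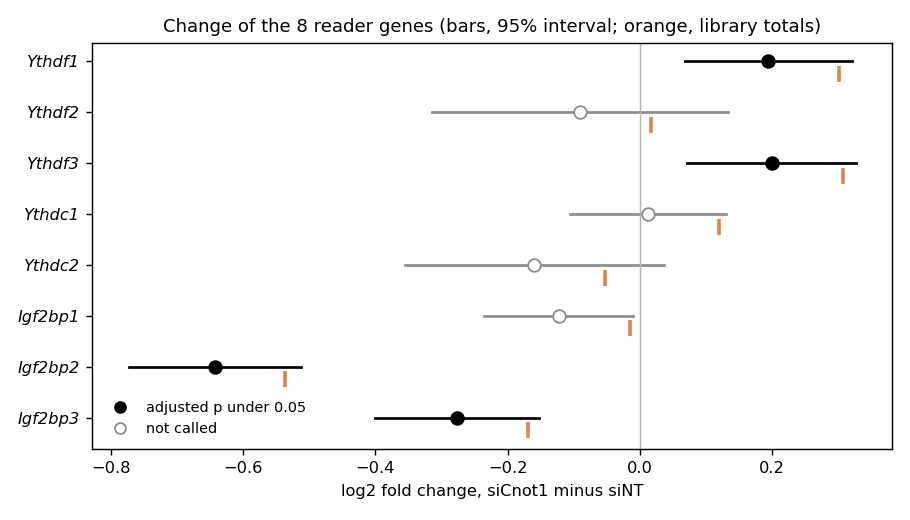
Log2 fold change of each reader gene (horizontal axis, siCnot1 minus siNT). Circles are estimates from edgeR, filled where the adjusted p was under 0.05, bars are 95% intervals, and orange ticks are the values with library totals in place of TMM; the interval of Igf2bp2, from -0.77 to -0.51, overlaps that of no other reader, and each tick lies to the right of its estimate.

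Of the YTHDC genes neither passed the test. Ythdc1, the nuclear reader, had 179 and 181 CPM in the siNT libraries and 180 and 183 in the siCnot1 libraries. The groups overlapped, and the log2 fold change was 0.01 (SE 0.0571, adjusted p = 0.902) with a 95% interval from -0.11 to 0.13. Of its 31-base stretches, 18.7% occurred also in Gm43055. Ythdc2, the helicase reader of the germline, was at 35.5 and 38.3 CPM in siNT and at 31.5 and 34.5 in siCnot1. Both siCnot1 libraries lay below both siNT libraries, though by less than their spread allowed the test to resolve, with a log2 fold change of -0.16 (SE 0.0946, adjusted p = 0.222) and a 95% interval from -0.36 to 0.04.

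After TMM scaling, the IGF2BP genes were all lower in both siCnot1 libraries than in both siNT libraries. Among all genes tested, the groups did not overlap for 63.9%. Of the 3 genes, 2 passed the test as lower, beside 14.7% of all genes tested. Igf2bp2 moved most. It encodes the reader linked to metabolism and to neural and muscle progenitors, and lies on chromosome 16 (GRCm39, chr16:21877759-21982049, minus strand). It had 148 and 155 CPM in siNT and 99.7 and 94.1 in siCnot1. The higher siCnot1 library was still well below the lower siNT library. The mean fell from 151 ± 5.36 to 96.9 ± 3.92 CPM (SD, n = 2 per group), to 64.0% of the control level, with a log2 fold change of -0.64 (SE 0.0629, adjusted p = 6.45e-08). A larger absolute change was seen in 19.6% of the genes tested. Igf2bp2 was called in each of the 8 other settings and in the 4 fits that left out a library, with log2 fold changes between -0.69 and -0.54 over the 12 and an adjusted p of at most 0.0225.

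Igf2bp3 (GRCm39, chr6:49062152-49200225, minus strand) encodes a paralog that is nearly silent in most adult tissues. It was at 180 and 195 CPM in siNT and at 153 and 156 in siCnot1. The siCnot1 libraries lay close together and below both controls. The mean fell by 17.4%, from 187 ± 10.2 to 155 ± 2.10 CPM (SD, n = 2 per group), with a log2 fold change of -0.28 (SE 0.0599, adjusted p = 0.0011). The call was lost when siNT replicate 2 was left out (-0.22, adjusted p = 0.0699) and when siCnot1 replicate 1 was left out (-0.27, adjusted p = 0.0518). The listed exons of Igf2bp3 overlap those of Malsu1, on the opposite strand, over 103 bases, 0.728% of their length. In GENCODE M21, however, 34.9% of the 31-base stretches of its longest coding transcript, read on either strand, occurred in other genes, and 34.7% in Malsu1, the largest such share among the 8 readers. The strand setting of the counting is not given in the sources used here, and Malsu1 itself had 508 to 574 counts per library against 5134 to 6101 for Igf2bp3.

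Igf2bp1 (GRCm39, chr11:95847989-95896770, minus strand) encodes the reader first described as a binder of Actb and Myc mRNA. It was the most abundant of the 8, with 702 and 677 CPM in siNT and 615 and 652 in siCnot1. After TMM scaling the groups did not overlap, but the gap between the nearest libraries was no larger than the spread within a group. The log2 fold change was -0.12 (SE 0.0542, 95% interval from -0.24 to -0.01), with an unadjusted p of 0.0339 and an adjusted p of 0.0943 from edgeR. limma-voom put it under the threshold (adjusted p = 0.0473), and with library totals the log2 fold change was -0.02. The exons of Igf2bp1 contain the microRNA gene Mir3063, 92 bases long, which had 0 counts in each library.

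Per length, the readers spanned a 14.5-fold range in siNT. Levels of different genes were compared as FPKM, the counts divided by the listed exon length and by the TMM-scaled library size. In siNT, Igf2bp1 stood highest with 82.3 FPKM, followed by Ythdf1 (46.7), Igf2bp2 (38.8), Ythdc1 (32.8), Ythdf3 (20.7), Igf2bp3 (13.3), Ythdf2 (6.10) and Ythdc2 (5.67). Ythdf2 and Ythdc2 were not separated in siNT, since their libraries overlapped. The other neighbours did not overlap. In siCnot1 the order differed at a single point: Igf2bp2 had 24.9 FPKM and stood below Ythdc1 with 33.0, and just above Ythdf3 with 23.8. The ratio of the highest to the lowest mean was 14.9 in siCnot1.

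The order depended on the length used. The table lists merged exons of 14140 bases for Igf2bp3, 3.25 times its longest coding transcript in GENCODE M21 (4345 bases), and of 5482 bases for Ythdc1, 1.68 times its longest coding transcript. Divided by the length of the coding transcript instead, an alternative added after seeing the data, Igf2bp3 had 43.1 FPKM in siNT and 35.6 in siCnot1, and Ythdc1 had 54.9 and 55.4. Ythdc1 then stood second after Igf2bp1, and 3 of the 8 genes kept their place in siNT. Igf2bp1 was first and Ythdf2 and Ythdc2 were last by either length. In both groups Igf2bp2 was below Igf2bp3 by the length of the coding transcript, and above it by the listed length.

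**Figure D3:**
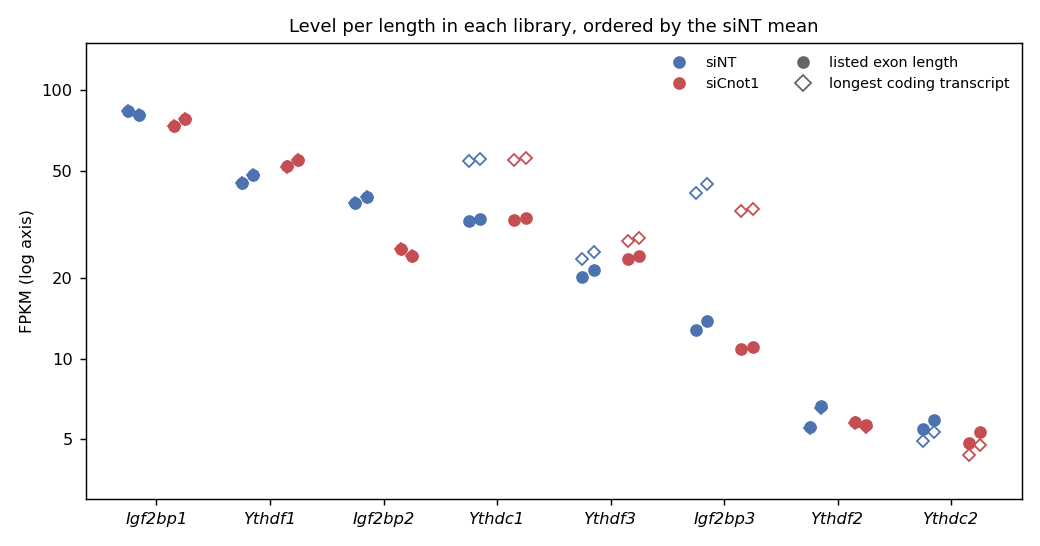
FPKM of each reader in the 4 libraries (vertical log axis), with genes ordered by their siNT mean. Filled circles use the listed exon length and open diamonds the longest coding transcript in GENCODE M21; the circles and diamonds of Igf2bp3 lie 3.25-fold apart, and Igf2bp2 drops from 38.8 to 24.9 FPKM.

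Within families the shares of the YTHDF paralogs moved by at most 1.37 percentage points, and the larger shifts were in the IGF2BP family. The summed level of the 3 Ythdf genes was 70.7 and 76.3 FPKM in siNT and 81.3 and 84.6 in siCnot1. The 3 Igf2bp genes together had 134.4 and 134.3 FPKM in the siNT libraries and 110 and 113 in the siCnot1 libraries, a change of -17.1% in the mean, and the sum of the 2 Ythdc genes changed by -0.816%. Igf2bp2 made up 28.2% and 29.6% of its family's sum in the siNT libraries and 23.3% and 21.4% in the siCnot1 libraries. Igf2bp1 made up 62.4% and 60.1% in siNT and 66.8% and 68.8% in siCnot1. The mean share of Igf2bp2 changed by -6.56 percentage points and that of Igf2bp1 by 6.60, while Igf2bp3 had 9.87% in siNT and 9.83% in siCnot1. These shares use the listed exon length and depend on it. By coding transcript length, added after seeing the data, Igf2bp3 made up 26.3% in siNT and 26.2% in siCnot1. Igf2bp1 then made up 50.1% and 55.6%, and Igf2bp2 23.6% and 18.3%.

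In the Ythdf family the share of Ythdf1 was 63.5% in siNT and 64.4% in siCnot1, that of Ythdf3 28.2% and 28.7%, and that of Ythdf2 8.28% and 6.91%. With 2 libraries against 2, an exact two-sided permutation test cannot give a p below 0.333, and 7 of the 8 shares reached this value (adjusted over the 8, p = 0.381). The shares of Igf2bp3 overlapped between the groups. On counts without length the share of Igf2bp2 changed by -3.76 points and that of Igf2bp1 by 4.50, in the same directions as per length.

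**Figure D4:**
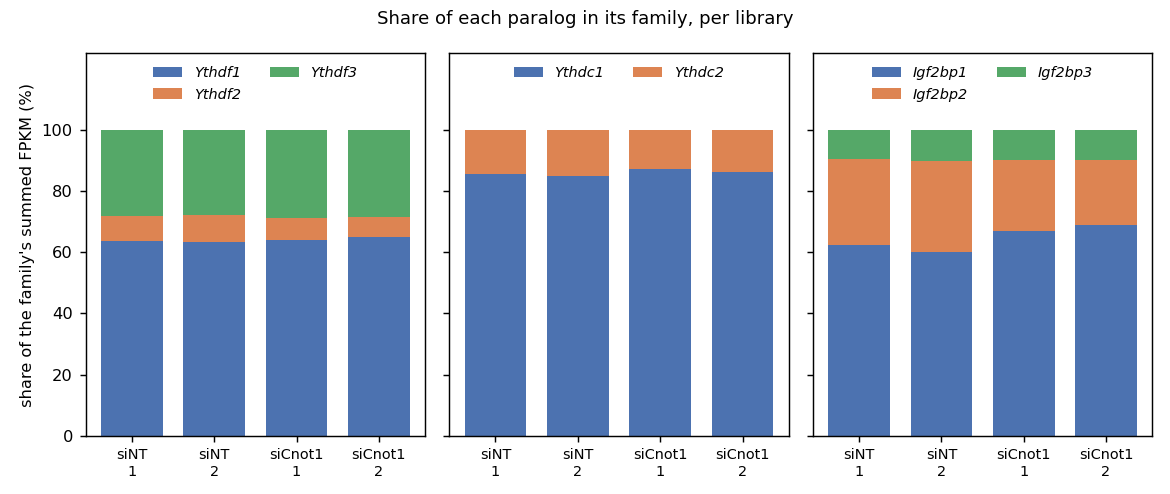
Share of each paralog in the summed FPKM of its family, by the listed exon length (vertical axis, percent), in each of the 4 libraries. Colours mark the paralogs. The Igf2bp2 segment is narrower in both siCnot1 libraries (23.3% and 21.4%) than in both siNT libraries (28.2% and 29.6%).

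The genes nearest to Igf2bp2 in level over the 4 libraries, by the Euclidean distance of log2 FPKM, were Nfu1, Sik1 and Cat, at distances of 0.0802, 0.109 and 0.144. Nfu1 encodes an iron-sulfur cluster factor of mitochondria, Sik1 a salt-inducible kinase and Cat the enzyme catalase. Nfu1 had 38.4 and 39.3 FPKM in siNT and 26.2 and 23.1 in siCnot1. These genes were picked for their likeness in these libraries, and no more is read from it.

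Around the readers, 6 lists of genes were examined: the m6A writers, the erasers, other RNA-binding proteins linked to m6A, the decay partners of YTHDF2 and YTHDC2, the partners of YTHDC1, and transcripts and partners linked to IGF2BPs. Without Cnot1 they hold 49 genes, of which 48 were tested, with 5 higher, 17 lower and a median log2 fold change of -0.12, beside 15% higher and 14.7% lower of all genes and a median of 0.01. With library totals in place of TMM, 6 were higher and 8 lower, beside 3999 higher and 1563 lower of the 18144 genes, and the median of all genes was 0.12. Which of the list genes kept their call with library totals was not examined. With TMM the log2 fold changes of the 48 lay between -0.69 and 0.50.

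**Figure D5:**
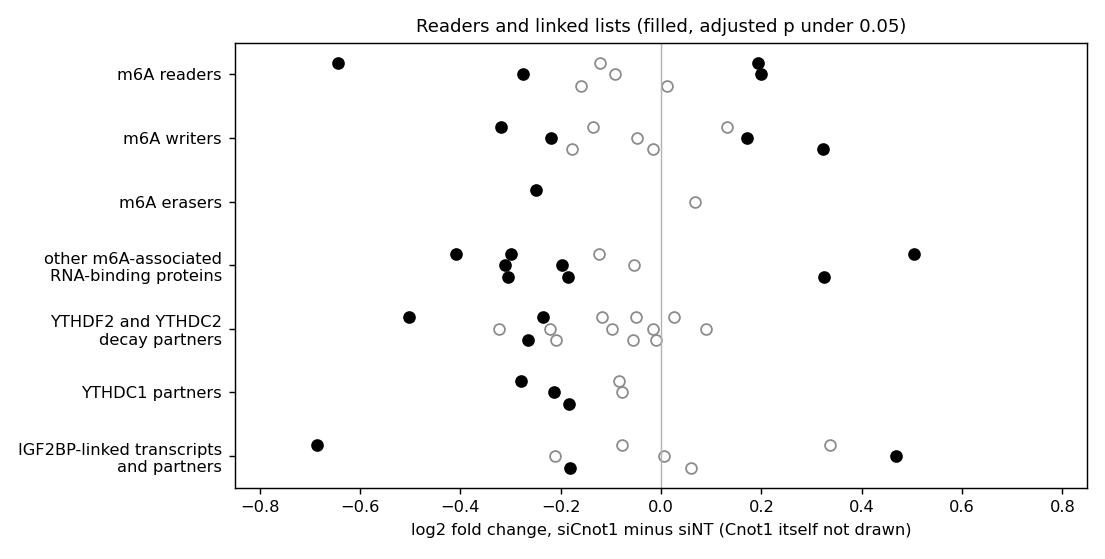
Log2 fold change (horizontal axis, siCnot1 minus siNT) of every tested gene of the readers and of the 6 lists, 1 row a list; filled points had an adjusted p under 0.05. The called points of the readers lie between -0.64 and 0.20, and the largest changes of the lists are those of Hmga2 (-0.69) and Prrc2b (0.50); Cnot1 is left out.

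Of the decay partners of the YTH readers, 15 were tested and 4 fell, beside 14.7% lower of all genes tested. Cnot1, the target of the siRNA, was among these 4, and its fall was set by the design. The other three were Upf1, the helicase of nonsense-mediated decay that binds YTHDF2 (-0.24, adjusted p = 0.00514), Rpp30, a protein of RNase P and MRP (-0.27, adjusted p = 0.0424), and Meioc, the meiotic partner of YTHDC2. Meioc had 24.3 and 35.7 CPM in siNT and 23.5 and 18.9 in siCnot1, with a log2 fold change of -0.50 (adjusted p = 0.00762). Its siNT libraries were far apart, and the lower of them was close to the higher siCnot1 library. The untested gene of this list, Rpp14, was listed at 0 counts.

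Beside 14.7% lower of all genes tested, 3 of 5 partners of YTHDC1 fell. They were Srsf10 (-0.28, adjusted p = 0.000545) and Srsf3 (-0.18, adjusted p = 0.015), splicing factors that bind it, and Trim28, the corepressor of retrotransposons (-0.21, adjusted p = 0.00258). Nxf1, the export receptor, was at -0.08 (adjusted p = 0.335).

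Among the 8 genes linked to IGF2BPs, 2 fell and 1 rose, beside 14.7% lower and 15% higher of all genes tested. The median log2 fold change of the 8 was -0.04. Hmga2, a chromatin protein and a classic IGF2BP target, had 43.9 and 52.2 CPM in siNT and 31.8 and 27.9 in siCnot1. The groups were well apart, with a log2 fold change of -0.69 (SE 0.10, adjusted p = 1.47e-05), near that of Igf2bp2. Matr3, a nuclear matrix protein that binds IGF2BPs, fell by 0.18 on the log2 scale (adjusted p = 0.0138). Lin28b, the repressor of let-7 maturation, had 24.8 and 30.5 CPM in siNT and 37.6 and 39.0 in siCnot1, and rose by 0.47 (SE 0.103, adjusted p = 0.00123). H19, an RNA bound by IGF2BPs, was at -0.21 (adjusted p = 0.225).

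Of the 9 writers, 2 were higher and 2 lower, beside 15% higher and 14.7% lower of all genes tested. Rbm15, an adaptor of the methyltransferase complex, rose by 0.32 (adjusted p = 0.00444) and Zc3h13, its nuclear anchor, by 0.17 (adjusted p = 0.0468), while Wtap, its regulatory subunit, was at -0.22 (adjusted p = 0.00894) and Mettl16, the methyltransferase of U6 RNA, at -0.32 (adjusted p = 0.000515). Of the erasers, Alkbh5 fell (-0.25, adjusted p = 0.0106) and Fto did not pass (0.07, adjusted p = 0.519). Of the 10 other RNA-binding proteins linked to m6A, 6 fell and 2 rose, beside 14.7% and 15% of all genes tested. Fmr1, the fragile X protein gene, fell from 128 and 133 CPM to 101 and 96.2 (-0.41, adjusted p = 2.63e-05), Fxr1 and Hnrnpc both by 0.31, and Prrc2b, a paralog of the reader PRRC2A, rose from 311 and 294 CPM to 412 and 445 (0.50, adjusted p = 5.8e-07).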

How the data were processed

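Poly(A)+ RNA of 4 libraries (2 siNT, 2 siCnot1) was analysed from the raw counts per gene that the authors deposited, unnormalized and unpooled, with the layout of featureCounts. The deposited exon lengths came with the table. The submitters' processing notes name fastp 0.19.4, HISAT2 2.2.1, DESeq2 1.40.2 and mm10, with no roles, whereas the gene positions are those of GRCm39, and of 48908 symbols shared with GRCm38 only 1354 started within 5 bases. Library strand was marked by dUTP per the labels, and the counting program's version and strand setting are not given in the sources used here. No column of the count table was left without a sample.

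Genes passing edgeR's filterByExpr (minimum count 10), 18144 in number, were scaled by TMM and tested by edgeR 4.0.16 (quasi-likelihood test; R 4.3.3) on condition alone. All adjusted p values are Benjamini-Hochberg values over all genes tested, called under 0.05. The methods' threshold (unadjusted p at most 0.05, at least 2-fold) was applied to the same fit. SE is the absolute log2 fold change over the root of the F statistic. FPKM used the listed exon lengths, and a pseudocount of 0.01 for distances between genes. Fits were tested on simulated data. Replicates of a group had a Pearson r of 0.988 and 0.989 across genes (which are not independent) and differed by more than sampling noise. Same-numbered libraries deviated with a correlation of 0.0109 over 18144 genes, so numbers were not taken as pairs. Alternatives were other scalings and filters, DESeq2 1.42.0, limma-voom (limma 3.58.1), a replicate block and leaving out each library. Transcripts, 3′ UTRs and the microRNA came from GENCODE M21 (GRCm38) and RefSeq, joined by gene name.

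The 8 members, the lists and the rule for named genes (the members, Cnot1, up to 4 genes of each of the 6 lists by adjusted p, the 3 genes nearest to the member of smallest adjusted p, and genes with overlapping exons) were chosen with earlier results of these data known. The sites of let-7 were chosen later, with these results in view.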

Additional observations from a re-analysis of the deposited data

How the results depend on the processing

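Igf2bp2 kept its direction and call in every setting run. The lower call of Igf2bp3 held in the 8 settings with all libraries, and those of Ythdf1 and Ythdf3 in 7 of 8. Readers at 2-fold numbered 0 throughout. Library totals in place of TMM gave 3999 genes higher in place of 2719 and 1563 lower in place of 2668, moved the median of all genes from 0.0084 to 0.1155, left 8 pathway genes lower, and turned Ythdf2 to 0.0164. Without a filter on low counts, where 30308 genes entered and the adjusted p of Igf2bp2 was 0.00655, 0 readers were higher, with 1303 genes higher and 1450 lower, and 2 and 9 pathway genes. DESeq2 gave 3 pathway genes higher. With the replicate block 2 readers were higher and 2 lower, among 2524 and 2431 genes, and it changed no call of a reader. Leaving out each library in turn leaves a lone library assumed to vary like the others. The readers higher then ranged from 0 to 0 and lower from 1 to 2, all genes higher from 743 to 1439 and lower from 871 to 1463, and pathway genes higher from 1 to 2 and lower from 7 to 10. Ythdc1 ranged from -0.00535 to 0.0206 and Ythdf2 from -0.219 to 0.0421, both changing sign without a call. On counts without length, the shares of Igf2bp1, Igf2bp2 and Igf2bp3 moved by 4.50, -3.76 and -0.741 points. By coding transcript length, added after seeing the data, 3 readers kept their place in the order in siNT and 4 in siCnot1. Library totals shift all genes alike, and for the other changes the cause was not tested. The 2 libraries per group limit every result, and Ythdf2 and Ythdc2 had the lowest counts of the readers.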
